A study of Mus musculus with 6 samples.

Results

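The ADAMTS proteoglycanases and their close relative papilin were followed in stromal fibroblasts of the mouse mammary gland that carry or lack a working Sharpin gene. The set was given by name and holds 8 of the 23337 genes counted: Adamts1, Adamts4, Adamts5, Adamts9 and Adamts15, which encode proteoglycan-cleaving enzymes, Adamts7 and Adamts12, which form a neighbouring branch of the family, and Papln, which encodes papilin. They were chosen by name with their genotype differences (log2 fold changes and CPM) in these same libraries in view, so those differences are described here, and the calls that the genome-wide fit made on them are no independent evidence. All 8 genes passed the filter on low counts that left 13442 genes for the genome-wide fit.

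RNA was sequenced from 3 cultures of mice homozygous for the cpdm allele of Sharpin (cpdm/cpdm, Sharpin deficient; called Sharpin-cpdm) and 3 cultures of wild-type mice. Both genotypes were on the C57BL/KaLawRij strain and 7 weeks old, and each sample pooled the glands of 3 mice. After digestion of the glands with collagenase, cells were separated by differential centrifugation, cultured in serum-containing medium to confluence and lysed at passage 0. SHARPIN belongs to the complex that builds linear ubiquitin chains, and cpdm stands for chronic proliferative dermatitis. The libraries held 13570649 to 15656196 counts in genes, and 16221 to 16495 genes had at least 1 count. Fibroblast collagen was abundant throughout, with Col1a1 at 20050 to 24700 CPM (counts per 1000000 counts assigned to genes). Sharpin stood at 10.5, 9.13 and 9.50 CPM in Sharpin-cpdm libraries 1, 2 and 3 and at 24.5, 25.2 and 31.2 CPM in wild-type libraries 1, 2 and 3, a log2 fold change of -1.48 ± 0.12 (SE, n = 3 per group) with the replicate number as a block. All 3 libraries labelled Sharpin-cpdm were below all 3 labelled wild type. The block sets each Sharpin-cpdm library against the wild-type library that bears its replicate number, and results are given with and without it because it decided which genes were called, at an adjusted p under 0.05.

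ADAMTS enzymes are secreted zinc metalloproteinases that carry a disintegrin-like module and thrombospondin repeats after the catalytic domain. Those of the proteoglycanase branch cut the core proteins of versican and aggrecan, the large proteoglycans that bind hyaluronan and keep the matrix around cells soft and hydrated. Their propeptides are removed by furin and related convertases, TIMP3 inhibits several of them, and the receptor LRP1 takes ADAMTS4 and ADAMTS5 back into the cell. Papilin shares the thrombospondin repeats and spacer of the family but has no metalloproteinase domain, and it is a glycoprotein of basement membranes.

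The sequence before the start is shown for 3 of the genes in the sequence table, chosen for the differences described below. Papln and Adamts9 were the members whose values did not overlap between the genotypes, and Adamts12 was the member with a ratio near 1. Each line gives the 250 bases before the gene's RefSeq start on GRCm38.p6, 5′ to 3′ on the strand of the gene. For Adamts9 and Adamts12 that start differs from the GENCODE start used for the gene positions given below. The Papln window lies at chr12:83763384-83763633 on the plus strand, the Adamts9 window at chr6:92943535-92943784 on the minus strand, and the Adamts12 window at chr15:11064523-11064772 on the plus strand. Capitals mark matches, on either strand, to a TATA box (TATAAA), an AP-1 element (TGANTCA), a GC box (GGGCGG) or the kappaB consensus.
Papln: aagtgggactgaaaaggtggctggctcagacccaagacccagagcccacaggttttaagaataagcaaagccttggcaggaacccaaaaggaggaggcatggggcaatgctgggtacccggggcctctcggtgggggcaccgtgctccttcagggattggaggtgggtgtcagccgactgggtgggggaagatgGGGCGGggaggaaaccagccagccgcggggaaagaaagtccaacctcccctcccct
Adamts9: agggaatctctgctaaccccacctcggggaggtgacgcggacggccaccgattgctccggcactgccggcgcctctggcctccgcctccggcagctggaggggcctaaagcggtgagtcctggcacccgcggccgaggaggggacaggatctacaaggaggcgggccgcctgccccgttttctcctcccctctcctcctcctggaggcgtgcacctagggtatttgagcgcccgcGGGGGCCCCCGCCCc
Adamts12: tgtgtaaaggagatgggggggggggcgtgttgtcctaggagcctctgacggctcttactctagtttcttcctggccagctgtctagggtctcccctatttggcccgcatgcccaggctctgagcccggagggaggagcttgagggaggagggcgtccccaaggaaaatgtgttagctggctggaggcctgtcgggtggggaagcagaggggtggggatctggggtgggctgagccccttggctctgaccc
The Papln window held 1 GC box. In the Adamts9 window 1 kappaB match overlapped 1 GC box close to the RefSeq start, and the Adamts12 window held no match to any of the 4 motifs. Of 27025 promoter windows of the same length, 32.9% held the GC box, 7.01% the kappaB consensus, 6.87% the AP-1 element and 13.0% the TATA box. G and C made up 61.6% of the Papln window, 71.2% of the Adamts9 window and 63.2% of the Adamts12 window, against a median of 52% over all windows. The Adamts9 window held 22 CG dinucleotides, that of Papln 7 and that of Adamts12 6, where the median window held 6. Adamts1 was the other member with a sequence in the table; its window, with 65.6% G and C, held 1 TATA box and 3 GC boxes.

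In wild-type fibroblasts the transcripts of the proteoglycanases ADAMTS1, ADAMTS4 and ADAMTS5 had the highest mean levels among the members. To compare genes, CPM was divided by the length of each gene's merged exons in kilobases. Adamts1 stood at 51.0 ± 23.8 CPM per kilobase (SD, n = 3, as for the other levels here), Adamts4 at 36.6 ± 3.26 and Adamts5 at 24.8 ± 15.1. Adamts12 followed at 14.5 ± 1.55 CPM per kilobase, Adamts15 at 10.7 ± 11.8 and Adamts7 at 8.60 ± 3.94. From Adamts1 down to Adamts7, each gene's wild-type range overlapped that of the next in the order. In library 2 of each genotype Adamts12 lay above Adamts5, at 15.07 against 10.64 CPM per kilobase in wild type and 15.15 against 10.39 in Sharpin-cpdm. Adamts9, at 2.80 ± 0.373 CPM per kilobase, lay below every Adamts7 value, and Papln, at 1.54 ± 0.138, lay below every Adamts9 value. In Sharpin-cpdm these 2 genes had the lowest means as well, 2.05 CPM per kilobase for Adamts9 and 0.701 for Papln. The place of Adamts15 likewise held for the mean only. In library 2 of each genotype it was the lowest of the 8 genes, at 1.34 CPM per kilobase in wild type and 0.706 in Sharpin-cpdm.

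Papilin and Adamts15 were the members with the lowest Sharpin-cpdm levels relative to wild type, at 45.4% and 41.7%, and their patterns over the libraries were unlike. Papln (chr12:83763634-83792382, plus strand, mm10) was measured at 3.76, 4.28 and 3.82 CPM in Sharpin-cpdm libraries 1, 2 and 3 and at 7.84, 9.39 and 8.72 CPM in wild-type libraries 1, 2 and 3. Every wild-type library was well above every Sharpin-cpdm library, and the spread within a genotype was small. Sharpin-cpdm had a mean of 3.95 ± 0.284 CPM and wild type one of 8.65 ± 0.775 CPM (SD, n = 3 each). The log2 fold change was -1.14 ± 0.13 with the replicate number as a block and -1.14 ± 0.17 without it (SE, edgeR), and the ratio within same-numbered libraries was 0.479, 0.456 and 0.438.

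Adamts15 (chr9:30899155-30922452, minus strand), a versican-cleaving proteoglycanase, was measured at 30.3, 7.32 and 94.2 CPM in Sharpin-cpdm libraries 1, 2 and 3 and at 69.8, 13.9 and 248.5 CPM in wild-type libraries 1, 2 and 3. Library 3 was high and library 2 low in both genotypes, so the groups overlapped and the wild-type libraries alone spanned 17.9-fold. Within each number, however, the Sharpin-cpdm library was the lower one, with ratios of 0.434, 0.528 and 0.379. The log2 fold change was -1.26 ± 0.09 with the block and -1.36 ± 1.15 without it. The means were 43.9 ± 45.0 CPM for Sharpin-cpdm and 110.7 ± 122.6 CPM for wild type (SD, n = 3 each), a difference smaller than the SD of the wild-type libraries. Without the block and without wild-type library 3, the log2 fold change of Adamts15 was 0.06.

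**Figure D1:**
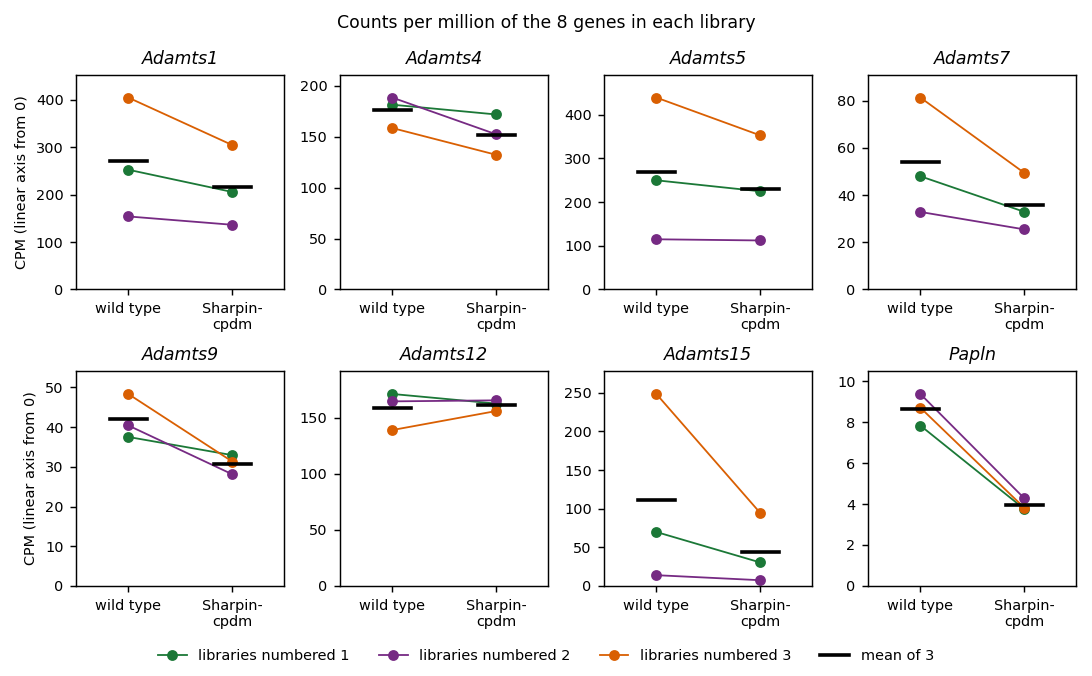
Level in CPM (linear axis) of the 8 genes in each library, with lines joining Sharpin-cpdm and wild-type libraries of the same replicate number. Papln separates the genotypes with little spread, while Adamts15 runs from 7.32 to 248.5 CPM with the lower end of each line in Sharpin-cpdm.

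Adamts1 and Adamts5 encode major versicanases and aggrecanases, and they lie side by side on the minus strand of chromosome 16. Adamts1 (chr16:85793827-85803113) stood at 206, 136.5 and 305 CPM in Sharpin-cpdm libraries 1, 2 and 3 and at 253, 154 and 405 CPM in wild-type libraries 1, 2 and 3. Adamts5 (chr16:85856173-85901828) stood at 224.5, 112 and 352 CPM in the Sharpin-cpdm libraries and at 250, 115 and 439 CPM in the wild-type libraries, in the same order. Both genes shared the order seen for Adamts15, with library 3 highest and library 2 lowest in each genotype, and the groups overlapped for both. The log2 fold change with the block was -0.31 ± 0.06 for Adamts1 and -0.19 ± 0.07 for Adamts5. Without the block it was -0.35 ± 0.40 for Adamts1 and -0.24 ± 0.55 for Adamts5, each smaller than its error. The annotated gap between the genes is 53059 bases and holds 1 gene, which does not code for protein. When the block and wild-type library 3 were both left out, the log2 fold change was 0.07 for Adamts1 and 0.32 for Adamts5.

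Adamts4 and Adamts9, also versicanases and aggrecanases, did not have that order. Adamts4 (chr1:171250421-171260637, plus strand) was at 172, 152 and 132 CPM in Sharpin-cpdm libraries 1, 2 and 3 and at 181, 188 and 158 CPM in wild-type libraries 1, 2 and 3. The groups overlapped slightly, since wild-type library 3 lay below Sharpin-cpdm library 1, and the log2 fold change with the block was -0.23 ± 0.06. Adamts9 (chr6:92772699-92943492, minus strand) was at 32.9, 28.1 and 31.3 CPM in the Sharpin-cpdm libraries and at 37.5, 40.4 and 48.4 CPM in wild type, libraries 1, 2 and 3 in turn. Its groups did not overlap, with all 3 Sharpin-cpdm libraries below the wild-type ones. The log2 fold change of Adamts9 was -0.46 ± 0.10 with the block and -0.46 ± 0.12 without it. Adamts9 overlaps A730049H05Rik, Gm15737 and 9530026P05Rik. As the library kit does not mark strand, reads of overlapping genes cannot be told apart unless the counting set them aside as ambiguous, and such entries equalled 0.608% to 0.627% of a library's gene counts.

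ADAMTS7 and ADAMTS12 are paired by structure, since both carry a mucin-like stretch, and both are known to cleave cartilage oligomeric matrix protein. Adamts7 (chr9:90163069-90208071, plus strand) was at 32.9, 25.4 and 49.3 CPM in Sharpin-cpdm libraries 1, 2 and 3 and at 47.9, 32.8 and 81.3 CPM in wild-type libraries 1, 2 and 3. It had the order of Adamts1, Adamts5 and Adamts15, with library 3 highest and library 2 lowest, and its groups overlapped. The log2 fold change was -0.57 ± 0.08 with the block and -0.61 ± 0.36 without it. Adamts7 overlaps Tbc1d2b on the opposite strand. Adamts12 (chr15:11064790-11349231, plus strand) was at 163, 165.5 and 156 CPM in the Sharpin-cpdm libraries and at 171, 165 and 139 CPM in wild type, libraries 1, 2 and 3 in turn. The groups overlapped closely, the ratio lay on both sides of 1 among the 3 numbers, and the log2 fold change with the block was 0.02 ± 0.05.

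**Figure D2:**
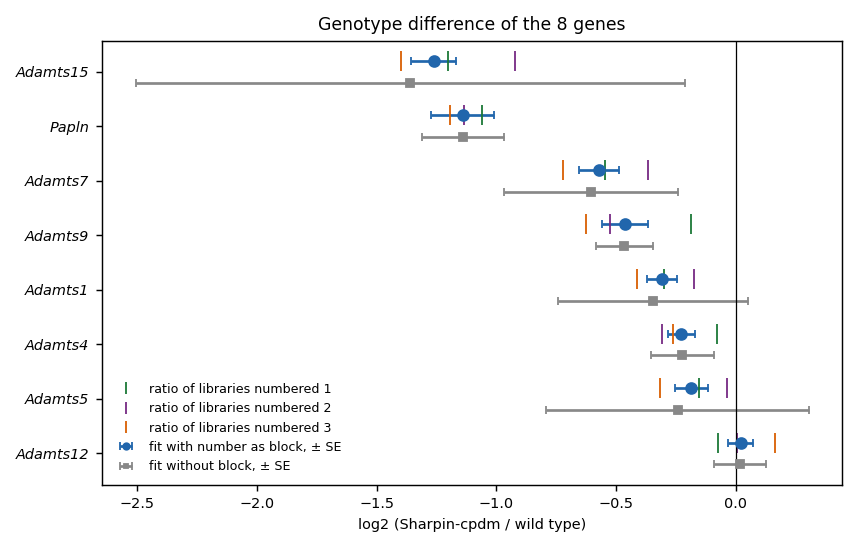
Log2 fold change of Sharpin-cpdm over wild type for the 8 genes with and without the replicate number as a block (points, bars ± SE), with the log2 ratio of each same-numbered pair. The estimates nearly coincide between the fits, while the error of Adamts15 is 0.09 with the block and 1.15 without it.

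In all, 7 of the 8 genes had a lower level in Sharpin-cpdm in every same-numbered pair, all but Adamts12, where 18.5% of the tested genes did so. For 2 of the 8, Adamts9 and Papln, all Sharpin-cpdm values lay below all wild-type values, against 2.59% of the tested genes. With the block, the quasi-likelihood test of edgeR, adjusted over all tested genes by the Benjamini-Hochberg method, called 3 members lower (Adamts7, Adamts15 and Papln), where 2.11% of all tested genes were called lower, and 0 members higher, where 0.394% were. Without the block the same test called 0 of the 8 members and 0% of all genes, with 307 genes at an unadjusted p under 0.05, and DESeq2 without the block called 10 genes, Papln among them. These shares describe genes chosen with the differences known, and nothing is read from them. The median log2 fold change of the 8 genes with the block was -0.38, that of all tested genes -0.0016. As these are bulk samples, fewer cells that make a transcript and less of the transcript per cell cannot be told apart.

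Among the members, Papln and Adamts9 were the ones whose spread over the 6 libraries lay mainly between the genotypes. The variation of log2(CPM + 0.5) was split into a part that goes with the replicate number, a part that goes with the genotype and a rest. For Papln 97.2% of it went with the genotype and 2.58% with the number, and for Adamts9 the shares were 75.3% and 11.5%. Adamts5 was the reverse case, with 98.1% of its variation going with the number and 1.29% with the genotype. Adamts1 had 91.9% with the number, Adamts15 87.9% and Adamts7 73.1%. Adamts4 lay between, at 52.0% with the number and 39.7% with the genotype. For Adamts12, which varied only 1.23-fold over all 6 libraries, 70.8% went with the number. Over all tested genes the median share was 72.7% for the number and 8.42% for the genotype, and 1.4% of the genes had more than 75% with the genotype. The labels do not say what a replicate number stands for.

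**Figure D3:**
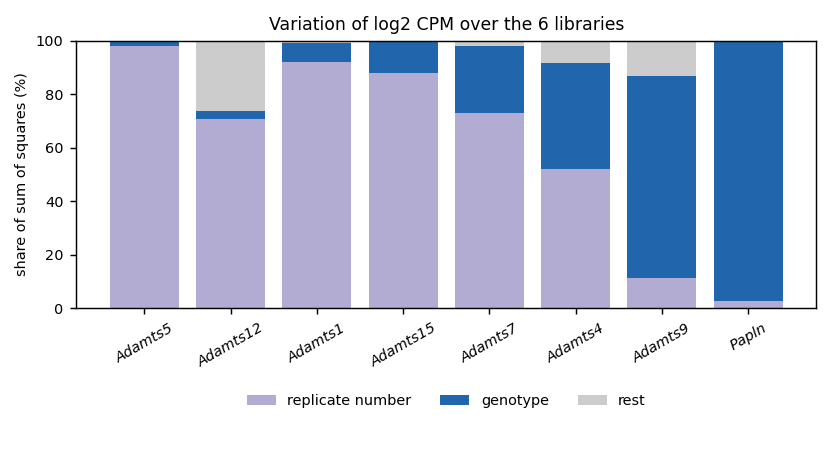
Share of the variation of log2(CPM + 0.5) over the 6 libraries that goes with replicate number, genotype and the rest, for each of the 8 genes. Papln, at 97.2% genotype, and Adamts5, at 98.1% replicate number, mark the ends of the range.

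Adamts1, Adamts5, Adamts7 and Adamts15 were the 4 members with library 3 highest and library 2 lowest in both genotypes, an order held by 17.9% of all tested genes. Among the 15 other ADAMTS and ADAMTS-like genes tested, Adamts2 alone had it. Of 10 fibroblast markers 4 had it, Col3a1, Pdgfra, Dcn and Lum, and the other 6, Thy1 and Vim among them, did not. Pdgfra, which encodes a growth factor receptor, was at 523.5, 216 and 820 CPM in Sharpin-cpdm libraries 1, 2 and 3 and at 587, 238 and 1165 CPM in wild-type libraries 1, 2 and 3. What part such differences between cultures had in the levels of the 4 genes was not tested.

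Likeness of pattern was measured as the root mean square difference of centred log2(CPM + 0.5) over the 6 libraries, with smaller values for more similar patterns. Within the set, Adamts1 and Adamts7 were closest, at 0.15, followed by Adamts4 and Adamts12 at 0.16 and by Adamts1 and Adamts5 at 0.23. Adamts12 and Adamts15 lay farthest apart, at 1.75. Among 10378 genes with a mean of at least 5 CPM, the closest to Adamts1 were Mgst1, which encodes a membrane-bound glutathione transferase, at 0.02, and Crebl2 at 0.02. Ms4a4d lay at 0.10 from Adamts5. Adamts7 was closest to Igfbp4, which encodes a binding protein of insulin-like growth factors, at 0.05, and to Ppap2b at 0.06. Adamts15, with its wide range, had less close neighbours in Akr1c14 at 0.24 and Adh1, an alcohol dehydrogenase gene, at 0.28. Adh1 ran from 0.942 CPM in Sharpin-cpdm library 2 to 55.5 CPM in wild-type library 3, the same lowest and highest libraries as for Adamts15. Papln was closest to Exoc3l at 0.17 and Sh2d5 at 0.18. Exoc3l was at 7.29, 7.25 and 7.16 CPM in Sharpin-cpdm libraries 1, 2 and 3 and at 12.4, 12.1 and 13.1 CPM in wild-type libraries 1, 2 and 3, so that it too separated the genotypes with little spread.

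The make-up of the proteoglycanase transcripts differed more between replicate numbers than between genotypes. Adamts1, Adamts4, Adamts5, Adamts9 and Adamts15 together came to 100.4, 70.4 and 129 CPM per kilobase in Sharpin-cpdm libraries 1, 2 and 3 and to 118, 82.9 and 177 in wild-type libraries 1, 2 and 3. Each Sharpin-cpdm sum lay below that of the same number, but the groups overlapped. Adamts4 made up 35.6%, 45.0% and 21.3% of the sum in the Sharpin-cpdm libraries and 32.0%, 47.2% and 18.6% in the wild-type libraries. It was thus the leading transcript in library 2 of each genotype, and Adamts1 led in libraries 1 and 3, with 38.6% and 44.6% in Sharpin-cpdm and 40.5% and 43.1% in wild type. Adamts15 made up 2.91%, 1.00% and 7.06% of the sum in the Sharpin-cpdm libraries and 5.72%, 1.61% and 13.5% in the wild-type libraries, a lower share in Sharpin-cpdm at each number. Adamts9 contributed between 1.62% and 3.24% in every library.

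**Figure D4:**
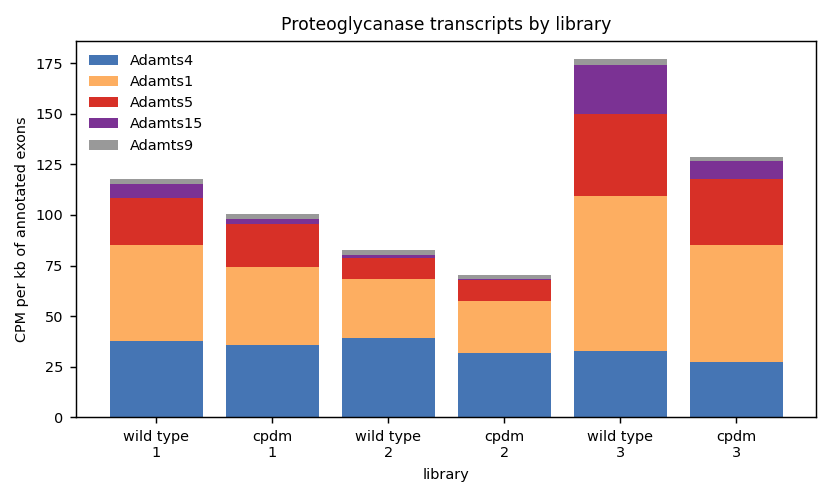
Summed CPM per kilobase of the 5 proteoglycanase genes in each library, stacked by gene. Libraries numbered 2 have the lowest sums, 70.4 and 82.9, with Adamts4 as the leading gene, and libraries numbered 3 have the highest.

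Elsewhere in the family, edgeR with the block called Adamts2 lower and no other gene. ADAMTS2, ADAMTS3 and ADAMTS14 trim the amino-terminal propeptide of fibrillar procollagens. Adamts2 was the most abundant ADAMTS transcript measured here, with 86.4 ± 28.9 CPM per kilobase in wild type (SD, n = 3). It stood at 582, 428 and 758 CPM in Sharpin-cpdm libraries 1, 2 and 3 and at 739.5, 577 and 1104 CPM in wild-type libraries 1, 2 and 3. The groups overlapped, and the Sharpin-cpdm library was the lower of each number. Its log2 fold change was -0.45 ± 0.06 with the block (edgeR, quasi-likelihood, Benjamini-Hochberg adjusted p = 0.0184) and -0.47 ± 0.28 without it, where it was not called, nor was it called with the block when pair 2 or pair 3 was left out. Of the 12 ADAMTS genes outside the set, 9 were tested, with 1 lower, 0 higher and a median log2 fold change of -0.12. With the block the log2 fold change was 0.28 ± 0.11 for Adamts14, -0.14 ± 0.16 for Adamts3, 0.15 ± 0.07 for Adamts6 and -0.12 ± 0.10 for Adamts10, and none of the 4 passed. Adamts14 was called higher with the block when pair 1 was left out. Adamts8 (named for its position, 20109 bases from Adamts15 with no annotated gene between) stood at 0.442 to 1.96 CPM and did not have the range of its neighbour.

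ADAMTS-like genes encode matrix proteins that, as papilin does, lack the protease domain. All 6 were tested and 0 were called in either direction, with log2 fold changes from -0.53 to 0.69 around a median of -0.21 in the fit with the block. Adamtsl3 was at 20.9, 19.8 and 24.5 CPM in Sharpin-cpdm libraries 1, 2 and 3 and at 15.8, 16.2 and 8.72 CPM in wild-type libraries 1, 2 and 3. Its groups did not overlap and lay in the opposite direction to Papln, and the log2 fold change was 0.69 ± 0.22 (edgeR adjusted p = 0.178). For Adamtsl1, Adamtsl5 and Adamtsl2 the log2 fold change was -0.10 ± 0.05, 0.03 ± 0.12 and -0.38 ± 0.34.

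The transcripts of the enzymes' substrates and of link proteins were not called by edgeR with the block. Of 11 such genes 4 were tested. Acan, which encodes aggrecan, and Comp were among those too low to test, at no more than 0.652 and 1.61 CPM in any library. Vcan, encoding versican, was at 485, 397 and 463 CPM in the Sharpin-cpdm libraries and at 498, 435 and 419 CPM in the wild-type ones, libraries 1, 2 and 3 in turn. Its values overlapped, and the log2 fold change was -0.02 ± 0.05 (edgeR with the block, adjusted p = 0.886). Biglycan (Bgn) had a log2 fold change of -0.01 ± 0.05 and Hapln4, a link protein gene, one of -0.24 ± 0.17. Fn1, encoding fibronectin, lay higher in every Sharpin-cpdm library than in any wild-type library, but its log2 fold change of 0.32 ± 0.07 did not pass (adjusted p = 0.0707 in the same test). Fn1 was called by DESeq2 with the block, by edgeR with the block and no low-count filter, and by edgeR with the block when pair 1 was left out.

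Among genes that hold the enzymes in check or help them act, edgeR with the block called Fbln1 lower and no other gene. DESeq2 with the block also called Timp3 and Pcsk5. With no low-count filter, edgeR with the block also called Pcsk5 and Mmp17, and with pair 1 left out it also called Pcsk5 and Sdc4. Fibulin-1, the product of Fbln1, is a matrix glycoprotein that binds ADAMTS1 and acts as its cofactor in cutting aggrecan. Its transcript was at 101, 75.3 and 126 CPM in Sharpin-cpdm libraries 1, 2 and 3 and at 138, 111 and 181 CPM in wild-type libraries 1, 2 and 3. The groups overlapped, library 3 was high in both, and the Sharpin-cpdm library was the lower one of each number. Fbln1 had a log2 fold change of -0.52 ± 0.05 with the block (edgeR adjusted p = 0.00617) and of -0.52 ± 0.23 without it, where it was not called, nor was it called with the block when pair 3 was left out. It was 1 of 8 tested genes of propeptide removal, cofactors and uptake, of which 1 was lower and 0 were higher, with a median log2 fold change of -0.15. Furin, the main convertase, was at 0.04 ± 0.04, Pcsk5 at -0.34 ± 0.07, Sdc4 at -0.39 ± 0.10 and the clearance receptor gene Lrp1 at -0.03 ± 0.05 on the log2 fold scale.

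Of 5 inhibitor genes 4 were tested and 0 were called by edgeR with the block, with a median log2 fold change of 0.06. Timp3, which encodes the principal inhibitor of ADAMTS4 and ADAMTS5, was at 1980, 2919 and 1948 CPM in Sharpin-cpdm libraries 1, 2 and 3 and at 1451, 2848 and 1221 CPM in wild-type libraries 1, 2 and 3. Here library 2 was the highest of each genotype, the opposite of Adamts5, and the groups overlapped. The log2 fold change of Timp3 was 0.37 ± 0.10 with the block (edgeR adjusted p = 0.144). Timp1, Timp2 and A2m stood at -0.07 ± 0.06, -0.22 ± 0.06 and 0.19 ± 0.14 on the same scale. Pofut2 and B3galtl, whose products add sugars to the thrombospondin repeats on which secretion of many of these proteins depends, had log2 fold changes of -0.0023 and -0.04, and 0 of the 2 were called.

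**Figure D5:**
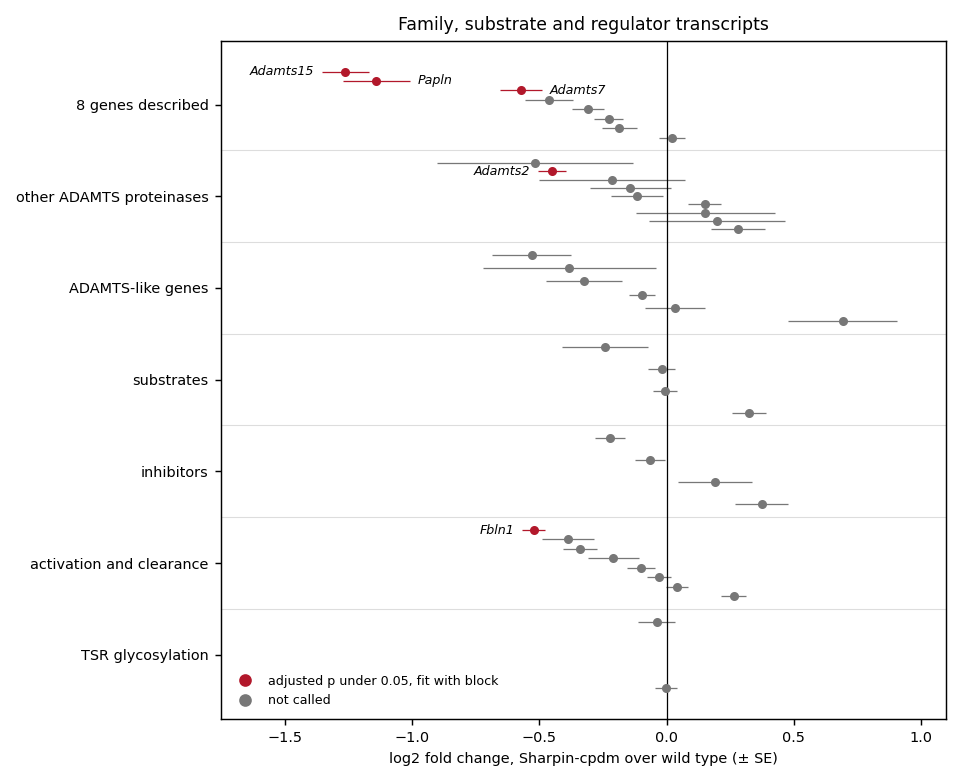
Log2 fold change with the replicate number as a block (points, bars ± SE) for the 8 genes and for lists of related genes, with genes called by edgeR in red. Outside the 8 genes, Adamts2 at -0.45 and Fbln1 at -0.52 are the called points.

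Among markers of other cells, the endothelial list alone had most of its genes called lower in Sharpin-cpdm by edgeR with the block. Without the block 0 of these markers were called. Of 19 endothelial markers tested with the block, 15 were called lower and 0 higher, with a median log2 fold change of -0.78. Their summed level was 632 to 920.5 CPM over the Sharpin-cpdm libraries and 827 to 1458 CPM over the wild-type ones, and the log2 ratio of the sums was -0.39, -0.79 and -0.66 for numbers 1, 2 and 3. The corresponding log2 ratios were -1.06, -1.13 and -1.19 for Papln and -0.19, -0.52 and -0.63 for Adamts9. Of the endothelial markers, Plvap at -1.23, Cldn5 at -1.20 and Erg at -1.14 reached the Papln ratio at number 2, where Eng stood at -0.27 and Ptprb at -0.20. No endothelial marker reached it at the other numbers. The lowest were Sox17 at -0.93 for number 1 and Robo4 at -1.09 for number 3. Of 8 pericyte markers 3 were called lower, with sums of 1830 to 2095 CPM over the Sharpin-cpdm libraries and 1975 to 2445 CPM over the wild-type ones. Fibroblast markers had 3 of 10 called lower, among them Dcn and Lum, with a median of -0.23. Of 8 epithelial and 9 macrophage markers tested 0 were called, with medians of -0.36 and 0.03. Below 0 lay 7 of the epithelial and 4 of the macrophage markers. The log2 ratio of the epithelial sums was 0.49, -0.67 and -0.94 for numbers 1, 2 and 3. For the macrophage sums it was 0.54, -0.35 and 0.18, so neither list kept 1 direction. Of 7 adipocyte markers 2 were tested and 1 was called lower, with Lep at 0 in all 6 libraries. The called gene was Fabp4, with log2 ratios of -0.79, -1.02 and -0.92 for numbers 1, 2 and 3. Lipe, the other one tested, had a log2 fold change of -0.17 with the block, and Adipoq did not exceed 0.201 CPM. The part of these cells in the levels of Papln, Adamts9 or the other members was not tested.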

How the data were processed

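Per the labels' protocols, libraries came from Illumina's TruSeq RNA v2 kit. The authors deposited whole-number counts of reads per gene symbol for each library; bcl2fastq 1.8.4, TopHat2 2.0.10, HTSeq 0.5.4p3 and the mm10 build were used, per the submitters' processing notes. Annotation, strand and overlap settings of the counting are not given in the sources used here. Summary rows (5 per table, 48.8% to 51.2% of the entries) entered neither library sizes nor tests.

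In R 4.3.3, edgeR 4.0.16 kept 13442 genes by filterByExpr, scaled libraries by TMM (factors 0.969 to 1.03) and tested genotype two-sided by the quasi-likelihood F-test, with Benjamini-Hochberg adjustment over all tested genes and a threshold of 0.05. An SE is the absolute log2 fold change over the root of its F statistic. The fit was run without and with the replicate number as a block, and with DESeq2 1.42.0. Levels are CPM of gene rows. Lengths and positions are from GENCODE vM21. No 2 libraries of a genotype agreed within sampling noise (chi-square per degree of freedom at least 16.9).

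Both genotypes carry replicate numbers 1 to 3. Deviations from the group means correlated, across genes, at 0.457, 0.809 and 0.737 for same-numbered libraries and at -0.691 to 0.00677 otherwise. Deviations cancel out within a genotype, so high values for same-numbered libraries force the others down, and the latter are no separate evidence. Samples were treated as paired by number, on the evidence of the data and not of the labels. With the block the biological coefficient of variation dropped from 0.217 to 0.0718. With the block, p-values weigh the genotype difference against the spread of the differences within same-numbered pairs. Without it, they weigh the difference against the spread between the pools of a genotype.

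The members, gene lists and tests were chosen with earlier results of these data known. Named are the 8 members, Sharpin, each related gene called in either fit, up to 4 further genes per related list with the highest mean CPM, and the 2 genes of most similar pattern for members that varied at least 2-fold, predicted genes left out; other names were chosen after their values were seen. Some genes that the rule names or that lie beside a member are not reported here.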

Additional observations from a re-analysis of the deposited data

How the results depend on the processing

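Without a block edgeR called 0 of all tested genes, 0 members and 0 related genes. With the replicate block it called 337 genes, 3 members and 2 related genes; with DESeq2's size factors and the block 336, 3 and 2; with DESeq2 and the block 341, 4 and 5, adding Adamts1; with no low-count filter and the block 502, 5 and 5, adding Adamts1 and Adamts9; and with a minimum of 1 CPM in 3 libraries and the block 330, 3 and 2. DESeq2 without the block called 10 genes and 1 member, Papln. Leaving out libraries or pairs gave 0 to 653 genes, 0 to 5 members and 0 to 6 related genes. Without a block, leaving out any 1 library left 0 calls. With the block, 653 genes were called without pair 1 (members Adamts4, Adamts7, Adamts9, Adamts15 and Papln), 128 without pair 2 (Adamts7 and Adamts15) and 44 without pair 3 (Adamts15). The cause was not tested. Over these leave-outs the log2 fold change ranged from -0.659 to 0.0681 for Adamts1, from -0.671 to 0.316 for Adamts5, from -0.0674 to 0.0721 for Adamts12 and from -2.56 to 0.0573 for Adamts15, and it stayed below 0 for Adamts4, Adamts7, Adamts9 and Papln, whose range was -1.23 to -1.06. Adamts1, Adamts5 and Adamts15 lay above 0 without wild-type library 3 and no block, and Adamts5 also without Sharpin-cpdm library 2, at 0.07. With the block they stayed below 0 without each pair. Papln rests on the fewest reads of the 8 genes, 51 to 147 a library.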
